A study of Rattus norvegicus with 4 samples.

Results

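Immobilization stress was examined here through the genes of the activin, inhibin and follistatin system in rat adrenal medulla: Inhba, Inhbb, Inha, Fst, Acvr1, Acvr2a and Smad7. Every probe set (a group of short probes that reports on a transcript) whose platform annotation named a single gene, and that gene among these 7, was taken, which gave 13 of 31042 probe sets, for 7 of the 14217 genes named in this way. No probe set named one of these genes together with another gene. Total RNA of adrenal medulla was hybridised to 4 single-colour oligonucleotide arrays, a pair for unstressed animals (2 arrays) and a pair for animals held immobile for 2 h (2 arrays). Strain, sex, age, the number of animals behind an array and the time between immobilization and dissection are not in the labels, so p-values measure the spread between these arrays, which may be technical. Only 2 arrays per group limit the precision of every value.

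Activins are dimers of beta subunits and belong to the TGF-beta family. Inhba encodes the beta A subunit, Inhbb the beta B subunit, and Inha the alpha subunit, which pairs with a beta subunit to form inhibin, an antagonist of activin. Activin binds a type II receptor such as the product of Acvr2a, which recruits and phosphorylates a type I receptor, and the signal passes through Smad proteins to the nucleus. Acvr1 encodes a type I receptor that mainly serves bone morphogenetic proteins (BMPs), Fst encodes follistatin, which binds and neutralises activin outside the cell, and Smad7 encodes an inhibitory Smad that feeds back on the receptors. In the adrenal gland inhibin and activin subunits are best known from the steroid-producing cortex.

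The 3 subunit genes rose after immobilization, and their promoters are shown because they are the members with the largest rises. RefSeq promoters (GRCr8 assembly) were matched by symbol for 5 of the 7 genes, with Fst and Acvr1 unmatched. The window is the 250 bases before the start of the gene, printed 5′ to 3′ on the strand of the gene. Capitals mark matches to a motif of those searched: TGACGTCA, the cAMP response element (CRE); its core TGACG; the CRE variant TGCGTCA; the CRE variant TGATGTCA, added after the sequences had been read; TGANTCA, the AP-1 site; AAAGGTCA, the Nr4a receptor element; and GTCTAGAC, the palindrome bound by Smads. Both strands were searched.
Inhba (chr17:53804509-53804758, minus strand): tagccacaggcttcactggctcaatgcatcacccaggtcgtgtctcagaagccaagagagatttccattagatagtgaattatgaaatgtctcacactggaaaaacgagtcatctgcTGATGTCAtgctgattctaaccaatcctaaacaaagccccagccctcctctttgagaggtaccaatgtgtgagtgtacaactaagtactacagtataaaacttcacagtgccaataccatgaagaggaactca
Inhbb (chr13:33089374-33089623, minus strand): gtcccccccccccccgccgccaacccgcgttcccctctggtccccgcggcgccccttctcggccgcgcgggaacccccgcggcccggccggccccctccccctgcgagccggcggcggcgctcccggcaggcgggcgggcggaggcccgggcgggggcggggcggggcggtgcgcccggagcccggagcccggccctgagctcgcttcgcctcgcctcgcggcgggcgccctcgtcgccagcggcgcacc
Inha (chr9:84442859-84443108, plus strand): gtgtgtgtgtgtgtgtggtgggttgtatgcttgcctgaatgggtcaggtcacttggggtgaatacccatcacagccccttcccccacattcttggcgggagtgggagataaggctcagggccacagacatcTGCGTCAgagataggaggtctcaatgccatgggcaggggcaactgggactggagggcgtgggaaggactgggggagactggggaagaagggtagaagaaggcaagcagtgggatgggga

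The Inhba window holds none of the motifs chosen before the sequences were read. It holds TGATGTCA from 133 to 126 bases before the start, but that motif was added after reading. Its share, 3.8% of the 33469 promoter windows of the same length, therefore does not measure how unusual the match is. The Inha window holds TGCGTCA from 119 to 113 bases before the start, present in 1.66% of windows. The core TGACG, read on the other strand, is part of the letters TGCGTCA and so is no further match. It occurs in 18.2% of windows. The Inhbb window holds none of the letters searched and has a G+C share of 86.8%, against 43.6% for Inhba, 58.4% for Inha and a median of 51.2% over all windows. Among the other promoters found, that of Acvr2a holds the core TGACG and that of Smad7 holds none of the motifs. Shares for the remaining motifs were 1.59% for TGACGTCA, 6.34% for TGANTCA, 1.24% for AAAGGTCA and 0.173% for GTCTAGAC. A match describes letters only and shows no binding.

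The deposited intensities were compared as log2(intensity + 16), so a fold change understates the change of a dim gene. Over 18625 probe sets bright enough to be tested with limma, 11.7% were called higher and 19.4% lower after immobilization at a Benjamini-Hochberg adjusted p under 0.05. The split depends on the scaling of the arrays: 2180 rose and 3619 fell with the deposited scaling, against 2844 and 2497 after each array was centred on its median, which moved the median log2 change of tested probe sets from -0.12 to 0.02. Across tested probe sets, Pearson's r within a group was 0.967 (unstressed) and 0.981 (immobilized), and across groups it was 0.856 to 0.871. As controls of the stress response, the early response genes Fos and Nr4a1 and the cAMP-inducible repressor gene Crem had log2 changes of 4.97 ± 0.31, 3.13 ± 0.16 and 4.04 ± 0.19 (SE, n = 2 per group).

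Of the 13 probe sets of the 7 genes, 9 were tested and 4 lay under the intensity filter of about 543.8. Among the 9 tested, 4 were called higher, for Inhba, Inhbb, Inha and Smad7. With limma, 0 of the 9 were called lower, and 0 were lower at an unadjusted p under 0.05. With the brightest probe set standing for a gene, 4 of the 7 genes rose, where 11.2% of 10320 genes rose and 21.8% fell. The brightest Inhba probe set passed the filter only through its immobilized readings, so these counts are a description of the probe sets that passed. With no filter, 5 of 13 were called higher, against 6.69% of all probe sets called higher and 10.6% called lower. The immobilized arrays lay above both unstressed arrays at 10 of the 13, with overlap at the other 3, while over all probe sets the share was 23.3% for immobilized higher and 35.8% for immobilized lower. The median log2 change was 0.75 over the 13, against -0.10 over all probe sets.

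**Figure D1:**
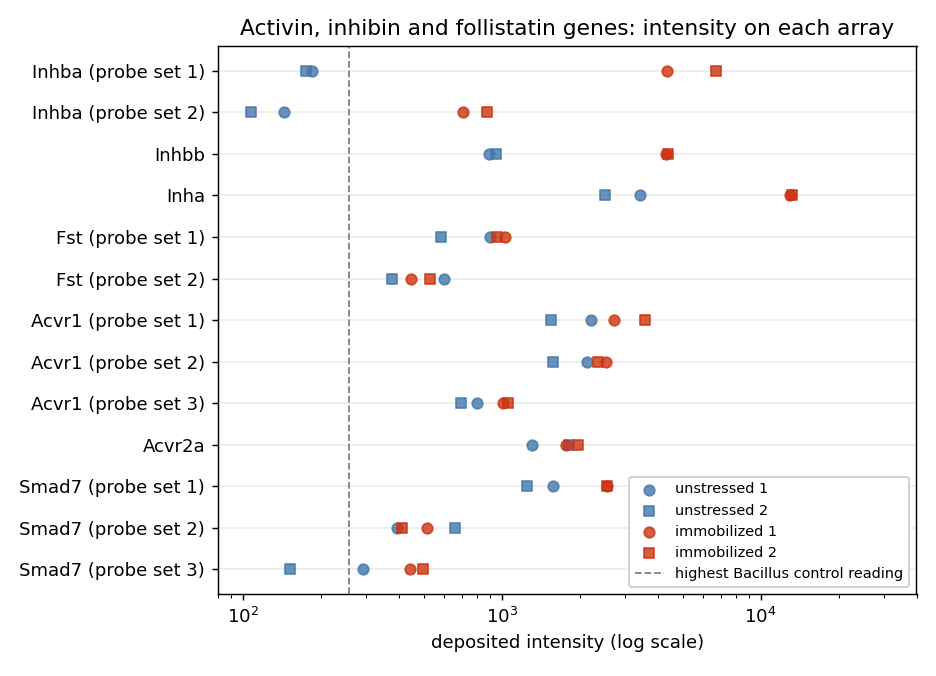
Deposited intensity (x axis, log scale) of each of the 13 probe sets on the 4 arrays, with unstressed arrays in blue and immobilized arrays in red; the dashed line is the highest reading of the Bacillus control probe sets, 257. Both Inhba probe sets move from below the line to above it, and the immobilized points of Inhbb, Inha and the first Smad7 probe set nearly coincide.

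Inhba, the beta A subunit gene, showed the largest rise of the 7 genes. Its brightest probe set (Entrez gene 29200) read 184 and 175 without stress, and 4334 and 6738 after immobilization. The groups were far apart, and the immobilized arrays differed from each other by 0.63 on the log2 scale. The log2 change was 4.79 ± 0.27 (SE, n = 2 per group), 27.7-fold, with a 95% interval of 4.16 to 5.43 and an adjusted p of 1.18e-04 in limma. It stood 19th among the rises of all tested probe sets, where 0.097% rose by more. Both unstressed readings lay under the highest Bacillus control reading on their array, 193 and 189, so the level without stress cannot be separated from background and the size of the rise is not exact. With offsets of 1 and 64 the log2 change was 4.90 and 4.49.

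The other Inhba probe set was dimmer. It read 145 and 107 without stress, and 707 and 880 after immobilization, again without overlap. It lay under the filter, and with no filter limma gave a log2 change of 2.52 ± 0.35, 5.73-fold, at an adjusted p of 0.00643. Both unstressed readings of this probe set also lay under the highest Bacillus control reading on their array, so the size of its rise is not exact either. Both probe sets of Inhba rose, by different amounts, and the mean over them was 3.66.

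Inhbb, the beta B subunit gene, has a single probe set (Entrez gene 25196). It read 891 and 952 without stress, and 4292 and 4375 after immobilization. Replicates were close in both groups, 0.09 apart on the log2 scale in the unstressed and 0.03 in the immobilized group. The log2 change was 2.21 ± 0.17, 4.64-fold, with a 95% interval of 1.81 to 2.62 and an adjusted p of 3.68e-04 in limma. Of all tested probe sets, 1.52% rose by more.

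Inha, the alpha subunit gene that makes a dimer an inhibin, also has a single probe set (Entrez gene 24504). It read 3433 and 2502 without stress, and 12973 and 13159 after immobilization. The unstressed arrays differed by 0.45 on the log2 scale and the immobilized arrays by 0.02. The log2 change was 2.15 ± 0.17, 4.44-fold, with a 95% interval of 1.74 to 2.56 and an adjusted p of 4.10e-04 in limma, and 1.63% of tested probe sets rose by more. The intervals of Inha and Inhbb overlap over most of their length. That of the brightest Inhba probe set lies above both, while that of the dimmer Inhba probe set, 1.67 to 3.37, overlaps both. At both Inhba probe sets the level without stress was within the control range. No test between genes was made.

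These are bulk samples, in which fewer cells of a type and less RNA per cell cannot be told apart. Markers of the adrenal cortex were bright on all 4 arrays, although the labelled tissue is medulla: the summed intensity of 8 cortex markers was 329785 to 372706 on the unstressed and 289714 to 401349 on the immobilized arrays. The 8 chromaffin cell markers, which define the medulla, summed to 304758 to 330006 and 292132 to 409372. The group ranges overlap for both lists, with both sums higher on immobilized 1 than on immobilized 2. Very bright genes carry these sums, so the overlap does not show an equal share of cells. The median log2 change was -0.21 for the cortex list and 0.09 for the chromaffin list, against -0.14 over all genes tested. Of the 8 cortex markers, 2 rose: Nr5a1, a transcription factor of steroid-producing cells, by 0.47 ± 0.14 (adjusted p = 0.0437 in limma, and 0.0702 with no filter), and Scarb1, a receptor for cholesterol-carrying lipoprotein, by 1.76 ± 0.20. The steroid-making enzyme genes Cyp11a1, Cyp11b1, Cyp21a1 and Hsd3b1 had log2 changes of -0.35, -0.64, -0.27 and -0.24 and did not pass. Of the 8 chromaffin markers, 1 rose, the vesicular transporter gene Slc18a2. Among 3 Schwann and sustentacular, 4 endothelial, 5 macrophage and leukocyte and 5 fibroblast markers, Gfap rose, and S100b and Kdr fell. Over the 6 lists, 4 of 33 tested markers rose and 2 fell, where 11.2% of all genes rose and 21.8% fell. Summed endothelial intensity was 30525 to 39686 without stress and 24949 to 27076 after immobilization, a gap carried by Kdr: over the other 3 genes the sums overlapped, at 14694 to 17185 and 14976 to 15169. Pecam1 (0.54), Vwf (0.36) and Tek (-0.33) did not pass, and the median of the endothelial list was 0.02. The sums of the Schwann and sustentacular, macrophage and leukocyte, and fibroblast lists overlapped between groups. No measured marker of the 6 lists lay under the filter. Whether these cells had a part in the rises of Inha, Inhbb and Inhba was not tested.

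**Figure D2:**
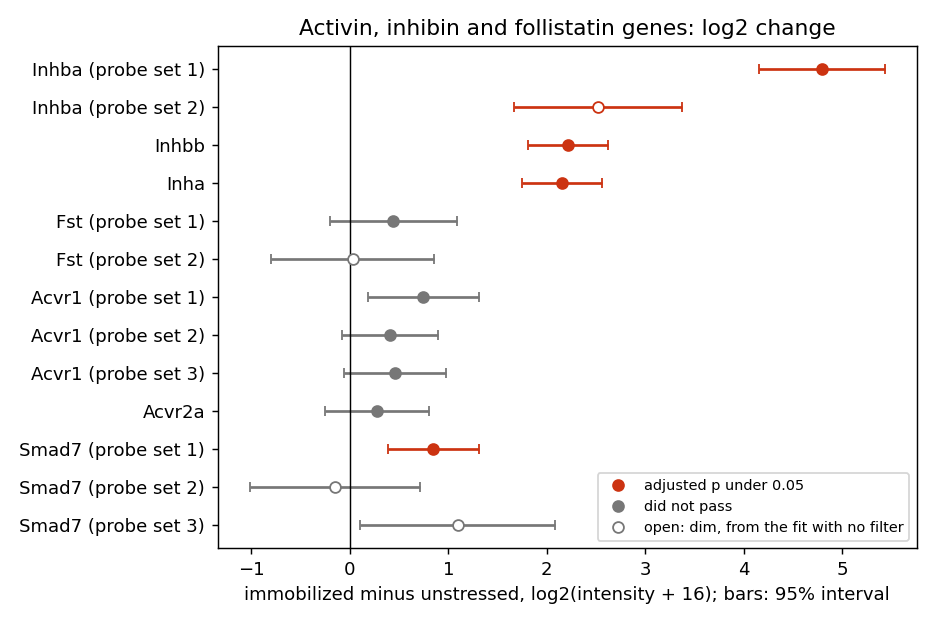
Log2 change, immobilized minus unstressed, of each of the 13 probe sets with its 95% interval (bars) from limma. Red marks an adjusted p under 0.05, and open symbols mark dim probe sets taken from the fit with no filter. The subunit genes lie at 2.15 and above, and the other probe sets at 1.09 and below.

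Fst, the gene for follistatin, did not pass the test. Its brighter probe set (Entrez gene 24373) read 901 and 583 without stress, and 1029 and 956 after immobilization. The immobilized readings lay just above the higher unstressed reading, and the unstressed arrays differed by 0.61 on the log2 scale, more than the difference between groups. The log2 change was 0.44 ± 0.27, with a 95% interval of -0.20 to 1.08 and an adjusted p of 0.255 in limma. The dimmer probe set read 597 and 377 against 445 and 528, with overlapping groups and a log2 change of 0.03 ± 0.34 in the fit with no filter.

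Acvr1, the type I receptor gene, has 3 probe sets, each with both immobilized readings above both unstressed readings. The brightest (Entrez gene 79558) read 2204 and 1544 without stress, and 2704 and 3573 after immobilization. Its log2 change was 0.75 ± 0.24, with an adjusted p of 0.0513 in limma, just outside the threshold, and a 95% interval of 0.19 to 1.31. This call depends on the setting: the adjusted p was 0.0238 after median centring, 0.0257 after quantile normalization, 0.0478 with the robust variance model and 0.00547 without the array unstressed 1. The next probe set read 2132 and 1577 without stress, and 2521 and 2358 after immobilization, and the dimmest read 801 and 693, and 1014 and 1053. Their log2 changes were 0.41 ± 0.20 and 0.46 ± 0.22, and neither passed (adjusted p = 0.173 and 0.151). The first of these passed only without unstressed 1, at 0.62 with an adjusted p of 0.0380.

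Acvr2a, the type II receptor gene, showed overlapping groups. Its probe set (Entrez gene 29263) read 1311 and 1816 without stress, and 1771 and 1967 after immobilization. The log2 change was 0.27 ± 0.22, with a 95% interval of -0.26 to 0.80 and an adjusted p of 0.391 in limma.

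Smad7, the inhibitory Smad gene, rose modestly at its brightest probe set. That probe set (Entrez gene 81516) read 1583 and 1250 without stress, and 2539 and 2545 after immobilization, which were nearly equal. The log2 change was 0.85 ± 0.19, 1.80-fold, with a 95% interval of 0.38 to 1.31 and an adjusted p of 0.0182 in limma. The call was lost without immobilized 1 (0.85, adjusted p = 0.113) and without immobilized 2 (0.84, adjusted p = 0.122). Leaving out an immobilized array also lowered the calls over all probe sets, from 2180 higher and 3619 lower to 973 and 1088 or 785 and 893, where the spread within groups is measured on the unstressed pair alone.

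The other Smad7 probe sets lay under the filter and disagree. One of them read 395 and 662 against 512 and 410, with overlapping groups and a log2 change of -0.15 ± 0.36 in the fit with no filter. The dimmest read 291 and 152 against 443 and 497, a log2 change of 1.09 ± 0.41 (adjusted p = 0.124 in limma with no filter). Its reading on unstressed 2 lay under the highest Bacillus control reading there. The mean over the 3 probe sets was 0.60.

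**Figure D3:**
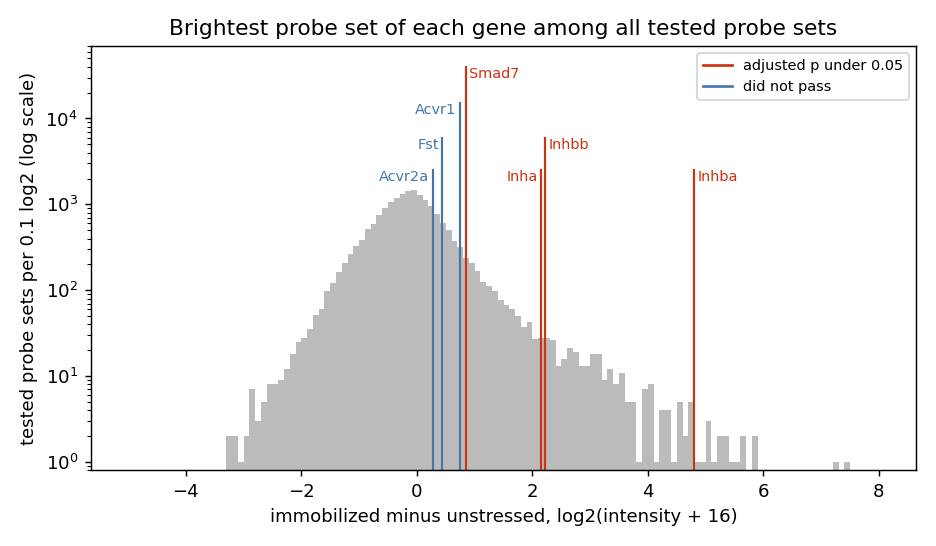
Distribution of the log2 change over all 18625 tested probe sets (grey, counts per bin on a log scale), with the brightest probe set of each of the 7 genes as a line, red where the adjusted p was under 0.05 and blue where it was not. All 7 lines lie to the right of the median of -0.12, with Inhba in the far tail.

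Within a group, the arrays differed mostly in the same direction over these probe sets. Probe sets of the same gene are not independent, so the counts are a description. Unstressed 1 read above unstressed 2 at 10 of the 13 probe sets, against 52.6% of all probe sets, and immobilized 2 read above immobilized 1 at 10 of the 13, against 45.3%. The changes of Fst, Acvr1 and Acvr2a moved with the unstressed array kept: without unstressed 1 the log2 changes of their brightest probe sets were 0.75, 1.00 and 0.04, and without unstressed 2 they were 0.14, 0.49 and 0.50. Inhba, Inhbb and Inha stayed past the threshold with each array left out, at log2 changes of 4.48 to 5.11, 2.17 to 2.26 and 1.92 to 2.38.

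Over the 4 arrays, the profiles nearest to each called member were listed by Euclidean distance between log2 values, each gene centred on its own mean. With only 4 arrays that all genes share, this describes likeness and nothing more. Kcnk5 (101 and 107) and Ptgs2 (156 and 111) read within the Bacillus control range without stress, as Inhba did, so their changes and distances are not exact. These genes and Tnfaip6 (316 and 398) passed the filter only through their immobilized readings. Nearest to Inhba were Kcnk5, a potassium channel gene (distance 0.22, log2 change 4.60), Ptgs2, the inducible cyclooxygenase gene (0.33, log2 change 4.59), and Tnfaip6, which encodes a hyaluronan-binding protein (0.34, log2 change 4.61). Nearest to Inhbb were Fzd4, a Wnt receptor gene (0.08), Hps4 (0.09) and Ddx46, an RNA helicase gene (0.11). Nearest to Inha were Bend4 (0.09), Dclk1, a kinase gene (0.12), and N4bp2l1 (0.18). Nearest to Smad7 were B3galnt1 (0.05), Adamtsl2 (0.07) and Csrp1 (0.07).

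The wider pathway was read from a list of 74 genes by role, of which 52 were tested, 13 lay under the filter and 9 had no probe set naming them alone. Of the 52, 18 rose, 8 fell and 26 did not pass, and the median log2 change was 0.35, against -0.14 over all genes tested. Of all 10320 genes tested, 11.2% rose and 21.8% fell. Of the 18 that rose, 3 passed the filter only through their immobilized readings (Inhba, Tgfb2 and Pcsk6), so these counts and those by role are a description. Leaving out the 7 genes, 14 of 45 rose and 8 fell, with a median of 0.22. The list was drawn up with earlier results of these data known and was not tested as a set. The 18 and 8 calls became 12 and 2 without immobilized 1 and 9 and 1 without immobilized 2.

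Tested ligand genes rose or did not pass, while 7 others lay under the filter and 1 had no probe set naming it alone. Of 11 tested, 7 rose, and without the subunit genes 4 of 8, where 11.2% of all genes rose. Tgfb2, one of the TGF-beta ligands, rose by 2.12 ± 0.21, from 407 and 393 to 1800 and 1797, while its dimmer probe set had 0.79 ± 0.41 and did not pass (adjusted p = 0.192). Its readings without stress lay under the filter, and with no filter limma gave an adjusted p of 0.00254. Tgfb3 rose by 0.93 ± 0.17, Bmp2, a BMP ligand, by 0.81 ± 0.16 (and by 1.25 at its other probe set) and Tgfb1 by 0.67 ± 0.16, the last named outside the naming rule, after its value was seen. Leaving out either immobilized array ended the calls on Tgfb3, Bmp2 and Tgfb1, with limma's adjusted p at 0.0867, 0.0849 and 0.176 for the first array and 0.0791, 0.0907 and 0.0981 for the second. Gdf11, an activin-like ligand gene, had a change of -0.07 and did not pass. Of the enzymes that cut ligand precursors, Pcsk6 rose by 1.95 ± 0.27, from 283 and 336, under the filter, to 1512 and 1016 (adjusted p = 0.00907 in limma with no filter). Pcsk5 and Furin had 0.53 and -0.18 and did not pass. Pcsk5 was just outside the threshold (adjusted p = 0.0571 in limma) and passed after median centring (0.0354) and quantile normalization (0.0457), but not with no filter (0.0870). Its dimmer tested probe set had 0.28 and did not pass.

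Of 10 receptor and coreceptor genes tested, 3 fell and 7 did not pass, which is near the share of all genes called lower, 21.8%, and shows no direction of the group. After median centring 2 rose (Acvr1 and Eng) and 2 fell, and after quantile normalization 1 rose and 1 fell. Acvr2b, the other activin type II receptor gene, read 2151 and 1467 without stress and 812 and 753 after immobilization, a log2 change of -1.17 ± 0.25 (adjusted p = 0.0140 in limma). Tgfbr3, which encodes betaglycan, a coreceptor for inhibin and TGF-beta, changed by -1.36 ± 0.37 (adjusted p = 0.0330), while its dimmer probe set had -0.71 and did not pass. Its unstressed arrays were uneven, at 2380 and 5643, and its adjusted p was 0.0516 after quantile normalization, 0.0535 without the intensity trend and 0.0551 with no filter. Bmpr1a, a BMP type I receptor gene, changed by -0.81 ± 0.22 (adjusted p = 0.0305), which was 0.0596 after median centring, 0.0632 after quantile normalization and 0.074 without unstressed 2. None of these 3 calls held with an immobilized array left out (adjusted p = 0.0824, 0.166 and 0.141 without immobilized 1, and 0.104, 0.163 and 0.168 without immobilized 2, for Acvr2b, Tgfbr3 and Bmpr1a). Among those that did not pass, Bmpr2 had -0.35 and Tgfbr1 had 0.14.

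Among the transducers, which carry the signal inside the cell, 4 of 7 tested fell at their brightest probe set, where 21.8% of all genes fell. Smad3, which transmits activin and TGF-beta signals, read 2825 and 3244 without stress and 1266 and 1305 after immobilization, a log2 change of -1.23 ± 0.18 (adjusted p = 0.00358 in limma). Smad2, its partner in that branch, changed by -0.80 ± 0.15, and Smad9 and Smad5, of the BMP branch, by -1.05 ± 0.25 and -0.61 ± 0.14. The direction of Smad5 is not settled: of its 4 tested probe sets the brightest fell, 1 did not pass (-0.32), and the other 2 rose, by 1.17 ± 0.23 and 1.33 ± 0.22. The calls on Smad2, Smad9 and Smad5 were lost without immobilized 1 (adjusted p = 0.0601, 0.112 and 0.0932) and without immobilized 2 (0.0946, 0.124 and 0.135), and that on Smad9 without unstressed 1 (0.0539). Smad4, the common partner of all receptor-regulated Smads, had -0.26 and did not pass, and Smad1 had 0.12.

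Intracellular inhibitors rose or did not pass: 4 of 8 rose, including Smad7, where 11.2% of all genes rose. Pmepa1, which encodes a membrane protein that sequesters receptor-regulated Smads, rose by 1.24 ± 0.15, Skil, a Smad corepressor gene, by 1.19 ± 0.12, and Tgif1, another corepressor gene, by 0.92 ± 0.25. Skil read 11856 and 11625 without stress and 27888 and 25607 after immobilization. Tgif1 no longer passed when immobilized 2 was left out (0.56, limma adjusted p = 0.183), with no filter (0.0548) and without the intensity trend (0.0596). Smad6, the other inhibitory Smad gene, had 0.24 and did not pass. Of 6 tested extracellular antagonists and carriers 1 rose, where 11.2% of all genes rose. This was Bambi, which rose by 0.69 ± 0.17, a call that ended when either immobilized array was left out. Bambi encodes a pseudoreceptor and not a secreted antagonist or carrier, and the other 5 tested genes of this role did not pass. Ltbp1 changed by 0.81 ± 0.26, just outside the threshold (adjusted p = 0.0519 in limma). It passed after median centring (0.0260), quantile normalization (0.0281) and robust estimation (0.0480), but not with no filter (0.0787) or without the intensity trend (0.0762). Fstl3, a relative of follistatin that also binds activin, had -0.08 and did not pass. Fstl1 had 0.19 and did not pass, although another of its probe sets fell by 0.77.

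Of 7 tested genes known as targets of the family, 5 rose and 1 fell, where 11.2% of all genes rose and 21.8% fell. Junb, an AP-1 gene that many other stimuli also induce, rose by 3.25 ± 0.14, and Id1, a BMP target that blocks helix-loop-helix factors, by 2.02 ± 0.16, from 6426 and 8484 to 31464 and 28777. Ccn2, the gene for connective tissue growth factor, rose by 1.51 ± 0.35, Gadd45b by 1.01 ± 0.25 and Id3 by 0.74 ± 0.20. Id2 changed by -1.04 ± 0.18, and by -1.29 at its other probe set, in the opposite direction to Id1 and Id3. Without immobilized 2 the calls on Ccn2, Gadd45b, Id2 and Id3 were lost (adjusted p = 0.115, 0.142, 0.0709 and 0.159 in limma), and that on Id3 also without immobilized 1 or unstressed 1 (0.149 and 0.087), with no filter (0.0581) and without the intensity trend (0.0658).

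**Figure D4:**
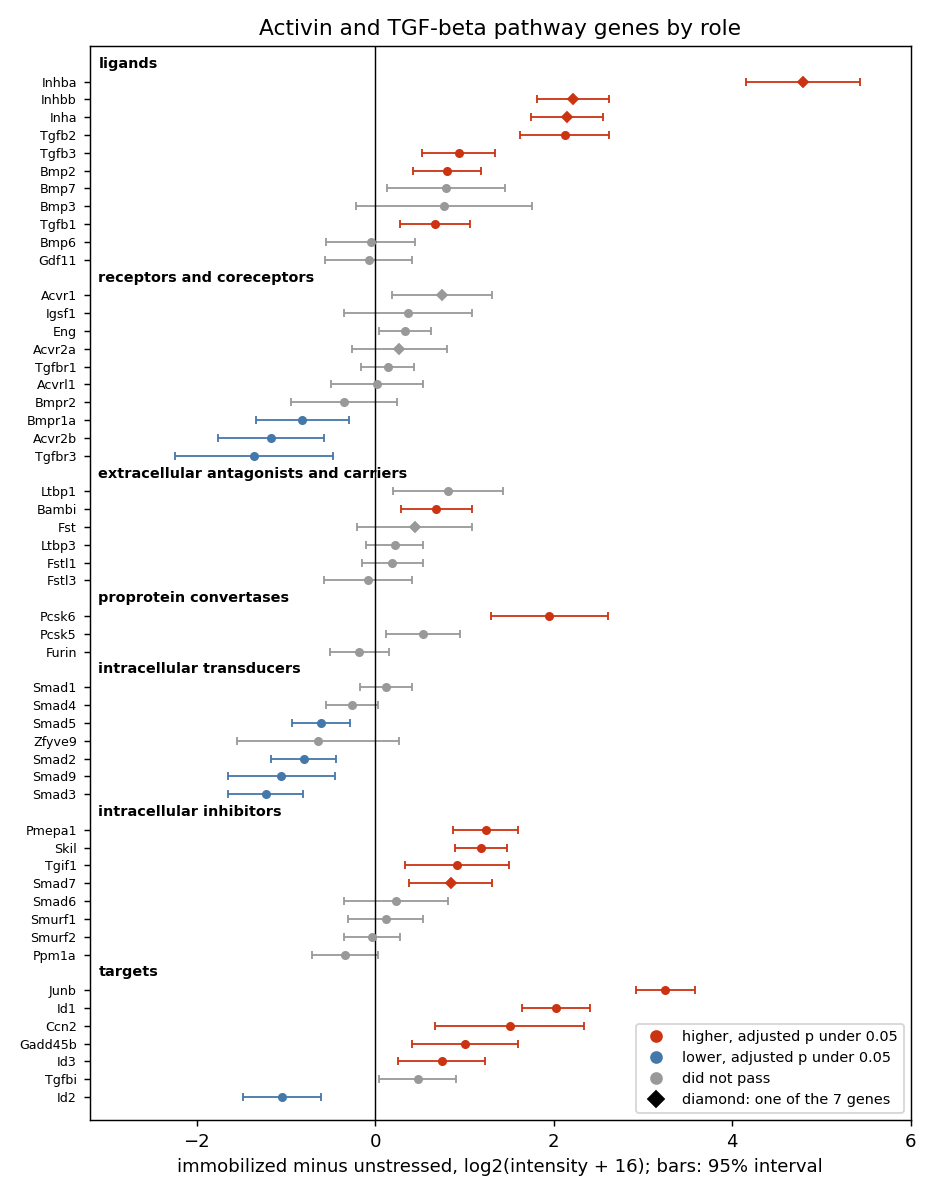
Log2 change, immobilized minus unstressed, with 95% interval for the 52 tested genes of the activin and TGF-beta list by role; red marks genes called higher, blue genes called lower, grey genes that did not pass, and diamonds the 7 genes described first. Of the genes tested, 7 of 11 ligands and 4 of 8 intracellular inhibitors are red, where 11.2% of all genes rose. Blue marks 3 of 10 receptors and 4 of 7 transducers, where 21.8% of all genes fell. Smad5 is drawn by its brightest probe set only.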

How the data were processed

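Groups came from the sample descriptions. The authors deposited 1 linear intensity per probe set and array for 31099 probe sets; the method of summarising probes: not given in the sources used here. The deposited columns share a trimmed mean of about 2501 (2% left out at each end, spread 0.00572%), so their scaling was kept. The 57 control probe sets were left out of the fit. Values became log2(intensity + 16), and probe sets with a mean under the 40th percentile were not tested. Genes were named from the platform annotation (20826 probe sets with 1 symbol, 436 with several, 9780 with none), of which 20758 were found by Entrez identifier in a GRCr8 gene table.

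Each probe set was fitted in limma (version 3.58.1, under R 4.3.3) by lmFit and by eBayes with an intensity trend, two-sided, Benjamini-Hochberg adjusted over all 18625 tested probe sets. The code was tested on simulated data. Adjusted p-values and SEs of dim probe sets come from the fit with no filter. An exact permutation test of 2 arrays against 2 cannot give a p under 0.333 and is not reported. The 27 Bacillus control probe sets served as background readings. A gene was represented by its brightest probe set.

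The members and lists were chosen with earlier results of these data known. Named were all 7 members, up to 6 called genes of each role (2 where none was called), the 3 nearest profiles of each called member, and Fos, Nr4a1 and Crem. The other list genes that did not pass were named for context after their values were seen. Among them are Gdf11, Bmpr2, Tgfbr1, Smad1, Smad4, Smad6, Furin, Pcsk5, Fstl1, Fstl3 and Ltbp1. Alternatives were quantile normalization, median centring, offsets of 1 and 64, no filter, no intensity trend, robust estimation, a stricter filter (60th percentile), each array left out, and averaging the probe sets of a gene. Plots used matplotlib 3.10.9.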

Additional observations from a re-analysis of the deposited data

How the results depend on the processing

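The log2 changes of Inhba, Inhbb and Inha kept their direction and their call under every alternative in which their probe set was tested (11, 12 and 12), with adjusted p-values in limma of at most 0.00906, 0.0177 and 0.0187; the brightest Inhba probe set lay under the 60th percentile filter and was not tested there. Averaging probe sets moved Inhba from 4.79 to 3.66 and Smad7 from 0.85 to 0.60. Acvr1 (0.75) passed after median centring (0.89), quantile normalization (0.87) and robust estimation (0.75), and ranged from 0.49 to 1.00 with an array left out. Smad7 ranged from 0.68 to 1.01 with an array left out and lost its call without either immobilized array. With an array left out, calls over all probe sets ranged from 785 to 2638 higher and from 893 to 3800 lower, and those over the pathway list from 9 to 20 higher and from 1 to 8 lower. Fst and Acvr2a passed under 0 of 11 and 0 of 12 alternatives. Of 52 member readings 5 lay within the Bacillus control range, and 1 under the 90th percentile of those controls. No paired analysis was possible because the labels give no replicate numbers that tie an unstressed array to an immobilized one. The limits are the 2 arrays per group, the unstated animals behind each array, and for Inhba and the dimmest Smad7 probe set an unstressed signal near background.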

Other observations

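Among genes of the list under the intensity filter, Grem1, which encodes the BMP antagonist gremlin, read 102 and 5.62 without stress, and 312 and 563 after immobilization. In the fit with no filter its log2 change was 3.11 ± 0.82 (SE, n = 2 per group), with an adjusted p of 0.0476 in limma. Both unstressed readings lay within the range of the Bacillus controls on their arrays, so the size is not exact. Gdf15, a stress-induced ligand gene, read 227 and 309 against 404 and 552, and Nog, the gene for the BMP antagonist noggin, 205 and 57.6 against 326 and 275. Their adjusted p-values were 0.188 and 0.185 in limma with no filter. The Nog reading of 57.6 lay within the Bacillus control range on its array. The minor activin subunit genes Inhbc and Inhbe had overlapping groups, with readings of 37.6 and 32.0 against 124 and 32.7 for Inhbc and of 468 and 539 against 677 and 413 for Inhbe. All 4 Inhbc readings lay within the Bacillus control range on their arrays and cannot be separated from background. Amh, another ligand gene of the list, read 261 and 338 without stress, and 147 and 259 after immobilization. Amh did not pass (adjusted p = 0.426 in limma with no filter), and its reading of 147 lay within the Bacillus control range on immobilized 1. These genes were singled out after their values were seen.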
